A study of Mus musculus with 8 samples.

Results

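The 9 genes described here encode parts of the path from dopamine to cyclic AMP (cAMP): the dopamine receptors Drd1, Drd2, Drd4 and Drd5, the G protein subunit Gnal, the adenylyl cyclase Adcy1, the phosphodiesterases Pde10a and Pde1b, and Ppp1r1b, the gene of the protein DARPP-32. They were taken by name from the 19938 genes that the arrays measure, and each had a single probe set, so no choice between probe sets was needed. The data are Affymetrix array signals from whole retinas of male C57BL/6 mice, aged 6 weeks when the experiment began. Saline was injected into the controls and MPTP into the treated mice. MPTP is a neurotoxin whose metabolite MPP+ enters dopamine neurons through the dopamine transporter. Each treatment was followed for 1 week (7 days) and for 4 weeks (28 days), so there are 4 groups: saline 1 week, MPTP 1 week, saline 4 weeks and MPTP 4 weeks. Every group of 6 mice supplied 2 arrays, each with RNA of 4 pooled retinas. The labels name no genetic change, and the dose of MPTP and the hour of sampling were not known here. Nor is it stated that a group's pools hold retinas of different mice, so p-values measure only the spread between these arrays, which may be partly technical.

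In the retina dopamine is released by a sparse type of amacrine cell, mainly in light, and spreads by diffusion to receptors on many cell types. Receptors of the D1 class (Drd1 and Drd5) raise cAMP through stimulatory G proteins, and receptors of the D2 class (Drd2 and Drd4) lower it through inhibitory ones. Adenylyl cyclases make cAMP, phosphodiesterases degrade it, and protein kinase A is its main effector. Through this path dopamine uncouples gap junctions and adapts retinal circuits to daylight, and in photoreceptors the Drd4 receptor and the cyclase Adcy1 are known partners in the daily rhythm of cAMP.

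RefSeq promoters were at hand for 7 of the 9 genes, in 11 windows of 250 bases before a transcription start (build GRCm38.p6). A window is printed for Drd4 and Adcy1, the only members whose MPTP and saline arrays did not overlap at 4 weeks, and for Pde10a (the first of its 2 starts), the member with the largest difference at 1 week, so the choice was made with these values known. All are on the plus strand and run 5′ to 3′, and the capitals mark the E-box CACGTG and the GC box GGGCGG (or CCGCCC, the same box read on the other strand).
Drd4, chr7:141291768-141292017: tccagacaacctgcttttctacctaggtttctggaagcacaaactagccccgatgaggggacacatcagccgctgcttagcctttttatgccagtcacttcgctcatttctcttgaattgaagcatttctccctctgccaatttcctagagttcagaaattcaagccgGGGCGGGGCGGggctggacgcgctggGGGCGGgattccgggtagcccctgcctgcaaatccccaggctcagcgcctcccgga
Adcy1, chr11:7063183-7063432: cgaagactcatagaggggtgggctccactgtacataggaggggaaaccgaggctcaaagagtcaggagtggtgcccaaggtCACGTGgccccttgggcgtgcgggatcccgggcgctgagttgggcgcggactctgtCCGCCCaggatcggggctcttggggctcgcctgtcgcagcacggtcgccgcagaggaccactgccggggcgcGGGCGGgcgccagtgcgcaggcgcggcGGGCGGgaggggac
Pde10a, chr17:8801495-8801744: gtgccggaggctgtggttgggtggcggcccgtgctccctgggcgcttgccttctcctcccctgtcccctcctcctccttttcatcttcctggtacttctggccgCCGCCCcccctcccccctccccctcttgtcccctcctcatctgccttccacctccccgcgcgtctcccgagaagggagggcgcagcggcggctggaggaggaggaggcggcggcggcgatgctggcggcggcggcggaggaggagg

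The E-box, the element bound by the clock factors CLOCK and BMAL1, was present in 1 of the 11 windows, that of Adcy1, where its first base lies 169 bases before the start. Of all 32851 promoter windows of this length in the table, 6.02% hold it. The short form TGACG of the cAMP response element, searched on both strands and contained in the full element, was found in 0 of the 11 windows and in 17.8% of all windows, and the full element TGACGTCA in 0 and in 1.55%. The GC box was found in 7 of the 11, 3 times in the Drd4 window (the first 2 lie 5 bases apart and overlap), against 32.7% of all windows. These are matches of letters in short windows and say nothing about binding.

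Percentile 95 of 1194 olfactory and vomeronasal receptor genes (a log2 signal of 6.64) served as a reference for dim signal. The rod, cone, bipolar, ganglion and Mueller glia markers measured all exceeded it. So did 4 of 5 amacrine, 3 of 4 horizontal cell and 1 of 4 microglia markers. The same held for 8 of 10 lens, 5 of 6 pigment epithelium, 3 of 5 melanocyte and 3 of 4 striated muscle markers. Exceeding this reference therefore does not identify the tissue. Of the 4 markers of dopaminergic amacrine cells only Th exceeded the reference, and the dopamine transporter gene Slc6a3, Ddc and Slc18a2 did not. The arrays saline 1 week array 2 and MPTP 1 week array 1 stand apart from the other 6 on the first principal component (scores 15.7 and 19.1 against -9.39 to -0.39), and no batch is given for them. The mean log2 signal of the 10 lens markers ran from 7.13 in MPTP 1 week array 1 to 8.17 in MPTP 1 week array 2. That of the 6 pigment epithelium markers ran from 7.57 in saline 1 week array 2 to 8.43 in MPTP 1 week array 2. In whole retinas a smaller number of cells of a type cannot be told apart from less RNA per cell.

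No gene of the 19938 passed the adjusted threshold (Benjamini-Hochberg adjusted p under 0.05, limma) in any comparison, and so none of the 9 did. At 1 week 842 genes, 4.22% of all, had an unadjusted p under 0.05, at 4 weeks 381 genes (1.91%), and over both times 950 (4.76%). Pde10a, which hydrolyses cAMP and cGMP, had the largest difference of the 9. Its signal at 1 week was lower in MPTP than in saline by 0.38 ± 0.12 on the log2 scale (unadjusted p = 0.0104, adjusted p = 0.9998), and Gnal stood 0.30 ± 0.13 higher (unadjusted p = 0.0459, adjusted p = 0.9998). The error after ± is the standard error of the limma fit unless an SD is named, with n = 2 arrays per group at each time and n = 4 for each treatment where the times are pooled. The other 7 genes lay between -0.12 and 0.06 at 1 week, and at 4 weeks all 9 lay between -0.16 and 0.10.

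**Figure D1:**
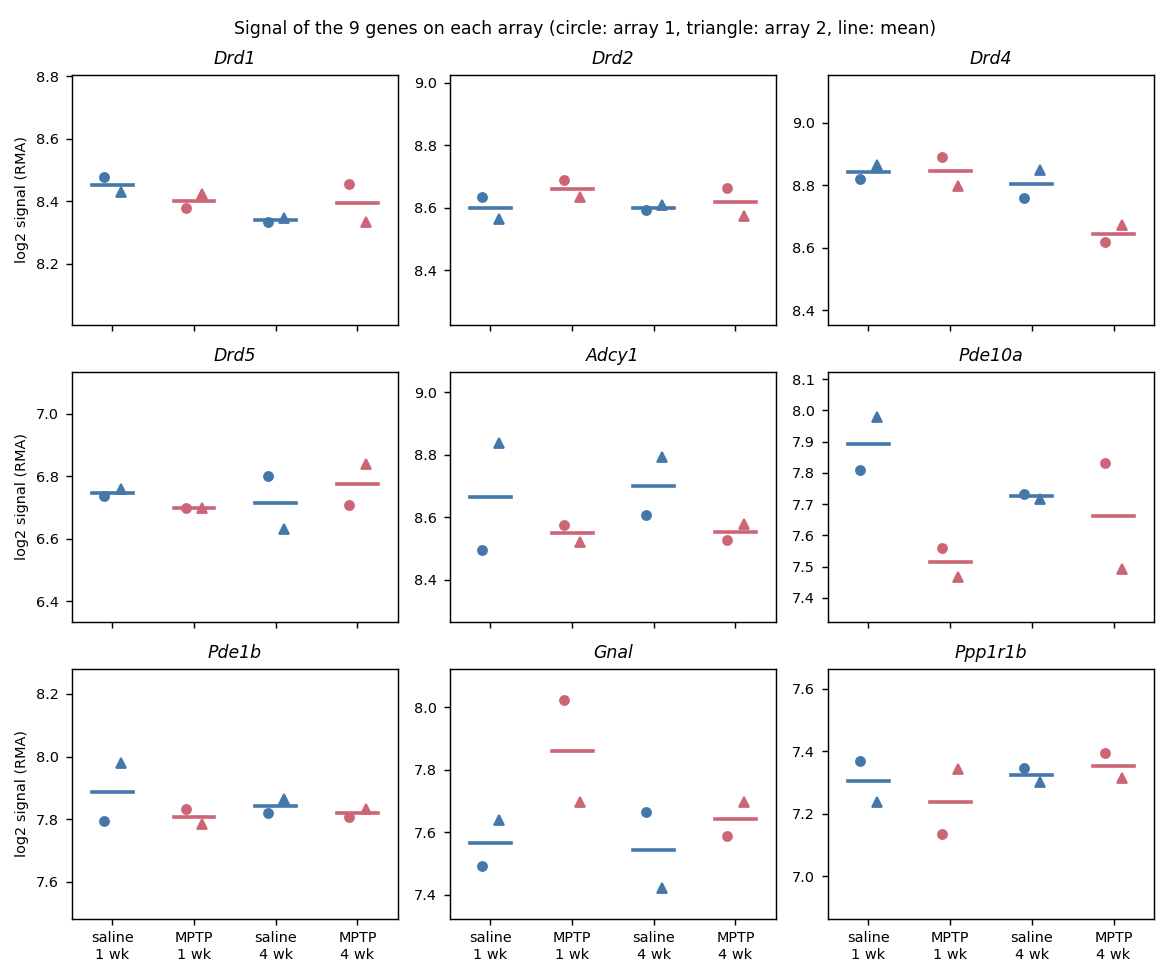
Log2 RMA signal (y axis, a window of 0.8 log2 units in every panel) of each of the 9 genes in the 4 groups (x axis), with a circle for array 1, a triangle for array 2 and a line for the group mean. In Pde10a both MPTP arrays at 1 week lie below both saline arrays, and in Drd4 both MPTP arrays at 4 weeks are the lowest of the 8.

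Drd1 and Drd5 are the D1 class receptors, found in retina on horizontal, bipolar and some amacrine and ganglion cells. The log2 signal of Drd1 (probe set 10409319) was 8.48 and 8.43 in saline and 8.38 and 8.42 in MPTP at 1 week, and 8.33 and 8.35 in saline and 8.46 and 8.33 in MPTP at 4 weeks. The MPTP arrays lay below the saline arrays at 1 week and overlapped with them at 4 weeks. The MPTP difference of Drd1 was -0.05 ± 0.09 at 1 week (95% confidence interval -0.25 to 0.14) and 0.05 ± 0.09 at 4 weeks (-0.14 to 0.25), with 6.9e-04 ± 0.06 over both times.

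Drd5 (probe set 10521583) had a log2 signal of 6.74 and 6.76 in saline and 6.70 on both MPTP arrays at 1 week, and of 6.80 and 6.63 in saline and 6.71 and 6.84 in MPTP at 4 weeks. Its mean over the 8 arrays, 6.73, is just above the dim reference of 6.64, the smallest margin of the 9 genes, so a small difference does not show that it was unaffected. Both MPTP arrays at 1 week lay below both saline arrays, while the arrays of 4 weeks interleaved. The MPTP difference of Drd5 was -0.05 ± 0.09 at 1 week and 0.06 ± 0.09 at 4 weeks.

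Drd2 is the autoreceptor by which dopaminergic amacrine cells sense their own release. Its log2 signal (probe set 10585169) was 8.63 and 8.56 in saline and 8.69 and 8.63 in MPTP at 1 week, and 8.59 and 8.61 in saline and 8.66 and 8.57 in MPTP at 4 weeks. It was the steadiest of the 9, with a range over the 8 arrays of 0.12 log2 units, or 1.09-fold, narrower than in all but 1.91% of genes. The 1 week groups did not overlap, but by a margin smaller than the digits printed here, and the MPTP difference was 0.06 ± 0.09. At 4 weeks it was 0.02 ± 0.09 (95% confidence interval -0.18 to 0.21).

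Drd4 is the receptor of the photoreceptors, and its transcript is known to follow a daily rhythm. Its log2 signal (probe set 10558866) was 8.82 and 8.86 in saline and 8.89 and 8.80 in MPTP at 1 week. At 4 weeks it was 8.76 and 8.85 in saline and 8.62 and 8.67 in MPTP. The 2 MPTP arrays of 4 weeks were the lowest of the 8, and the other 3 groups overlapped with each other. The MPTP difference was 0.0026 ± 0.09 at 1 week and -0.16 ± 0.09 at 4 weeks (unadjusted p = 0.102). The difference between these effects, 4 weeks minus 1 week, was -0.16 ± 0.12 (95% confidence interval -0.44 to 0.12, adjusted p = 0.9999).

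Within the MPTP groups Drd4 was lower at 4 weeks than at 1 week by 0.20 ± 0.09 (unadjusted p = 0.0475, adjusted p = 0.507), the only member with an unadjusted p under 0.05 in that comparison, where 9.79% of all genes had one. In the alternative settings other than leaving out 1 array, the change of Drd4 in MPTP ran from -0.24 to -0.087. In the saline groups the change of Drd4 with time was -0.04 ± 0.09. The 5 cone markers had mean log2 signals of 10.18 to 10.22 in MPTP 1 week and 10.17 to 10.21 in saline 1 week, against 9.93 to 10.04 in MPTP 4 weeks and 9.99 to 10.02 in saline 4 weeks. The 6 rod markers measured had 11.48 to 11.53 in MPTP 1 week and 11.46 to 11.54 in saline 1 week. At 4 weeks these rod values were 11.40 to 11.42 in MPTP and 11.42 to 11.44 in saline. The part of cone and rod markers in the Drd4 values was not tested.

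Drd3, the receptor of this family that was not among the 9, had a mean log2 signal of 6.37, under the dim reference. Its MPTP difference was 0.03 ± 0.12 at 1 week (-0.16 without saline array 2) and 0.06 ± 0.12 at 4 weeks.

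Gnal encodes the G protein subunit that couples D1 class receptors to adenylyl cyclase in striatum and odorant receptors to it in olfactory neurons. Its log2 signal (probe set 10456363) was 7.49 and 7.64 in saline and 8.02 and 7.70 in MPTP at 1 week, and 7.66 and 7.42 in saline and 7.59 and 7.70 in MPTP at 4 weeks. The groups did not overlap at 1 week and did at 4 weeks, and MPTP 1 week array 1, 1 of the arrays that stand apart, was the highest of the 8. Without that array the difference of 0.30 was 0.13, and without MPTP array 2 it was 0.46. At 4 weeks the difference was 0.10 ± 0.13, and over both times 0.20 ± 0.09 (unadjusted p = 0.0540, adjusted p = 0.973). Gnal had the widest range of the 9 genes over the arrays, 0.60 log2 units or 1.52-fold, wider than in 93.5% of genes.

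Adcy1 encodes an adenylyl cyclase that calcium and calmodulin stimulate, and its promoter window is the one with the E-box printed above. The log2 signal (probe set 10374202) was 8.49 and 8.84 in saline and 8.57 and 8.52 in MPTP at 1 week, and 8.61 and 8.79 in saline and 8.53 and 8.58 in MPTP at 4 weeks. The 4 MPTP arrays lay close together, with a mean of 8.55 ± 0.03 (SD, n = 4), and the 4 saline arrays at 8.68 ± 0.16 (SD, n = 4). The groups overlapped at 1 week and not at 4 weeks. The MPTP difference was -0.12 ± 0.12 at 1 week, -0.15 ± 0.12 at 4 weeks and -0.13 ± 0.08 over both times (95% confidence interval -0.31 to 0.05, unadjusted p = 0.129). At 1 week it rested on saline array 2, the highest of the 8, without which it was 0.05 (and -0.07 over both times). At 4 weeks it was -0.05 without saline array 2 and -0.24 without saline array 1.

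Pde10a is best known from the striatum, where it ends cAMP and cGMP signals in the neurons that receive dopamine. Its log2 signal (probe set 10441680) was 7.81 and 7.98 in saline and 7.56 and 7.47 in MPTP at 1 week. Both MPTP arrays were thus below both saline arrays, 1.30-fold lower on average, with a 95% confidence interval of -0.65 to -0.11 before adjustment for the number of genes. At 4 weeks the values were 7.73 and 7.71 in saline and 7.83 and 7.49 in MPTP, so that 1 MPTP array lay above and the other below the saline arrays. The difference there was -0.06 ± 0.12, and 0.11 without MPTP array 2. Over both times it was -0.22 ± 0.09 (unadjusted p = 0.0379, adjusted p = 0.973), and the 4 MPTP arrays overlapped with the 4 of saline.

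The 4 weeks minus 1 week difference of the MPTP effects on Pde10a was 0.32 ± 0.17 (95% confidence interval -0.06 to 0.70, adjusted p = 0.9999), so that the early and the late difference could not be told apart. In the saline groups Pde10a was lower at 4 weeks than at 1 week by 0.17 ± 0.12, without overlap. Leaving out 1 array of the 1 week groups at a time gave MPTP differences of -0.47 to -0.29, and leaving out both arrays that stand apart gave -0.34. Of the marker lists, only those of horizontal cells and Mueller glia also had no overlap at 1 week, where 26.3% of all genes had none. The lists of rods, cones, bipolar, amacrine, dopaminergic amacrine and ganglion cells overlapped. So did those of lens, pigment epithelium, melanocytes, blood, microglia and striated muscle. The horizontal cell markers had mean log2 signals of 7.60 to 7.63 in MPTP against 7.46 to 7.52 in saline. The Mueller glia markers had 9.23 to 9.25 in MPTP against 9.36 to 9.43 in saline. The part of these 2 lists in the values of Pde10a and Gnal was not tested.

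Pde1b encodes a phosphodiesterase that calcium and calmodulin activate, and it degrades both cyclic nucleotides. Its log2 signal (probe set 10427369) was 7.79 and 7.98 in saline and 7.83 and 7.78 in MPTP at 1 week, and 7.82 and 7.86 in saline and 7.81 and 7.83 in MPTP at 4 weeks. The groups overlapped at both times. The MPTP difference was -0.08 ± 0.09 at 1 week, -0.02 ± 0.09 at 4 weeks and -0.05 ± 0.06 over both times. A single array, saline 1 week array 2, stood above the other 7, which spanned 7.78 to 7.86.

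Ppp1r1b encodes DARPP-32, which blocks protein phosphatase 1 once protein kinase A has phosphorylated it and so carries the cAMP signal further. Its log2 signal (probe set 10380862) was 7.37 and 7.24 in saline and 7.13 and 7.34 in MPTP at 1 week, and 7.35 and 7.30 in saline and 7.39 and 7.31 in MPTP at 4 weeks. The 2 lowest arrays of the 8 were saline 1 week array 2 and MPTP 1 week array 1, the arrays that stand apart, and the other 6 spanned 7.30 to 7.39. The MPTP difference was -0.07 ± 0.10 at 1 week, 0.03 ± 0.10 at 4 weeks and -0.02 ± 0.07 over both times.

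**Figure D2:**
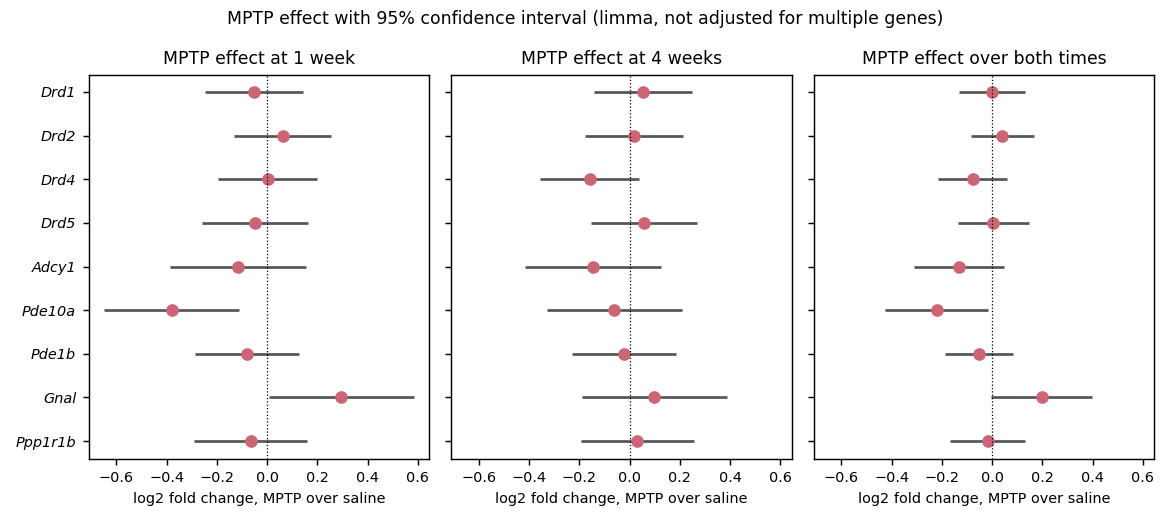
MPTP over saline differences of the 9 genes (x axis, log2 fold change) at 1 week, at 4 weeks and over both times, with points for the limma estimate and bars for its 95% confidence interval before adjustment for multiple genes. The interval leaves out 0 for Pde10a and Gnal at 1 week and for Pde10a over both times, and holds it in all other cases shown.

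As a group the 9 genes did not lean one way. At 1 week 3 were above and 6 below 0, with a median of -0.05 against -0.0081 over all genes, and 5 above and 4 below (median 0.01) without saline array 2. At 4 weeks 5 were above and 4 below (median 0.02 against 0.0043), but 2 and 7 without MPTP array 1 and 3 and 6 without saline array 2, and over both times 4 above and 5 below (median -0.02 against -0.0017). The 95% confidence intervals cover only the spread between these arrays, so larger changes in RNA could have gone unseen. This holds above all for Drd5, which lies just above the dim reference. For the 4 receptors the intervals reached at most a 1.20-fold difference at 1 week (Drd5). At 4 weeks they reached 1.28-fold and over both times 1.16-fold (both Drd4). For Gnal and Pde10a at 1 week they reached 1.499-fold and 1.567-fold.

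Groups without overlap were counted beside the same count over all genes. At 1 week 5 of the 9 genes had no overlap between treatments, where 26.3% of all genes had none. Of these, 2 were higher in MPTP (Drd2 and Gnal, against 12.5% of all genes) and 3 lower (Drd1, Drd5 and Pde10a, against 13.8%). At 4 weeks they were 2 genes, against 35.3% of all genes: Drd4 and Adcy1, both lower (17.9% of all genes), and 0 were higher (17.4%). Over both times the count was 0 in either direction, against 2.5% of all genes (1.01% higher and 1.49% lower). From 1 to 4 weeks in saline 2 genes had no overlap, against 27.7% of all genes. They were Drd1 and Pde10a, both lower (15.1% of all genes), and 0 were higher (12.7%). From 1 to 4 weeks in MPTP 2 had none, against 44.3%, Drd4 lower (21.5% of all genes) and Drd5 higher (22.8%). With 9 genes and 2 arrays a group these counts are a description only.

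An unadjusted p under 0.05 (limma) was found for 2 of the 9 at 1 week, against 4.22% of all genes. The count was 0 at 4 weeks, against 1.91%, and 1 over both times, against 4.76%. For the change with time in MPTP it was 1 (Drd4), against 9.79%. For the difference of the effects the count was 0, against 1.96% of all genes, and for the change with time in saline it was 0, against 2.13%.

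The change with time was small in most of the 9. In saline it lay between -0.17 (Pde10a) and 0.03 (Adcy1), and in MPTP between -0.22 ± 0.13 (Gnal) and 0.15 ± 0.12 (Pde10a). The adjusted p of every member was 0.9997 in saline and at least 0.507 in MPTP (limma). The saline comparison also serves as a measure of drift between control groups of different age, and its size for Pde10a was 0.17 against 0.38 for MPTP at 1 week. Both comparisons use the saline arrays of 1 week, so these 2 values are not independent.

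In the order of group means, saline 1 week was the highest group for Drd1, Pde10a and Pde1b, MPTP 1 week for Drd2, Drd4 and Gnal, MPTP 4 weeks for Drd5 and Ppp1r1b, and saline 4 weeks for Adcy1. Neighbours in these orders mostly differed by less than the spread between arrays. In Drd4 the means were 8.84 in both 1 week groups, 8.80 in saline 4 weeks and 8.64 in MPTP 4 weeks, and only the last step had no overlap. In Pde10a they were 7.89 in saline 1 week, 7.72 in saline 4 weeks, 7.66 in MPTP 4 weeks and 7.51 in MPTP 1 week, and the first step had no overlap, whereas both later steps did overlap.

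**Figure D3:**
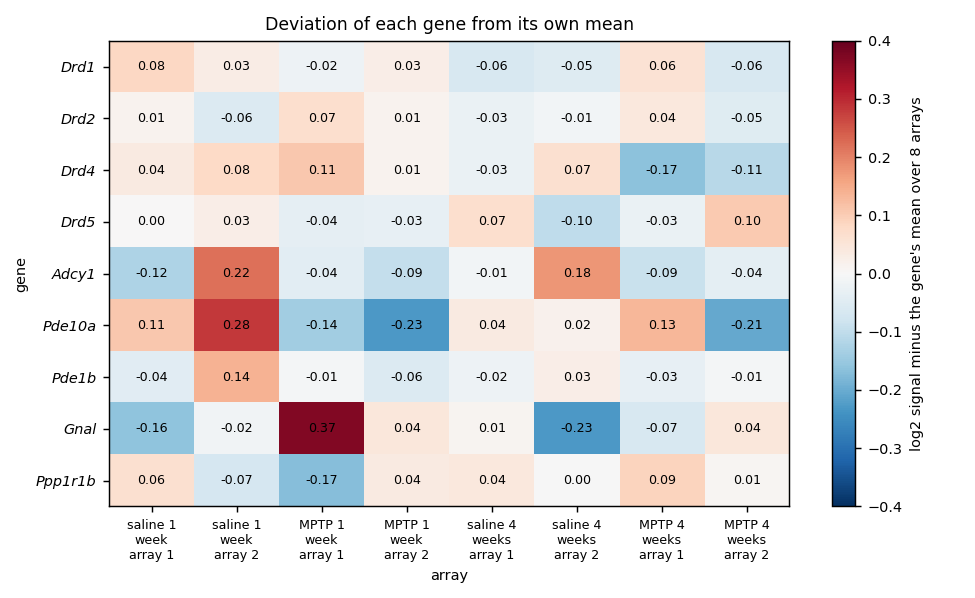
Log2 signal of each gene (rows) on each array (columns) minus that gene's mean over the 8 arrays, with the value written in each cell, red above and blue below the mean. Gnal in MPTP 1 week array 1 (0.37) and Pde10a in saline 1 week array 2 (0.28) are the highest cells, and the row of Drd2 runs only from -0.06 to 0.07.

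The genes varied to unlike degrees and mostly apart from each other. The SD within groups was 0.16 for Gnal and 0.14 for Adcy1 and Pde10a, above the median of all genes (0.10), and 0.05 for Drd1, Drd2 and Drd4. Across the 8 arrays the pair most alike was Adcy1 and Pde1b, both calcium and calmodulin dependent, with a Pearson r of 0.90, followed by Pde10a and Pde1b at 0.58. Both members of the first pair were highest in saline 1 week array 2. The most opposed pair was Gnal and Ppp1r1b at -0.72. These correlations describe 8 arrays that share groups and normalization.

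Among the 9969 genes above percentile 50 of the mean signal, the profile most like that of Drd4 was that of Grtp1 (r = 0.98 over 8 arrays), followed by Tapt1 and Wdr74 (0.97 and 0.96). For Pde10a these were Selenow (0.93), Jam3 (0.93) and Sephs2 (0.92), and for Adcy1 BC034090 (0.99), Plekha2 (0.97) and Arhgef2 (0.97). Drd1 was most like Tpi1 (0.95), Drd2 most like Psmb5 (0.96), Drd5 most like Trappc12 (0.91), Pde1b most like Ttll7 (0.98), Gnal most like Tmf1 (0.98), and Ppp1r1b most like Col1a1 (0.98). With so many genes searched over 8 arrays, values of this size are a description of these arrays only.

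The rest of the pathway was read from 10 lists that hold 121 measured genes, 112 of them besides the 9. Some listed genes had no measured value, among them Gnas, Prkaca, Rapgef4 and the listed adenosine and beta-adrenergic receptors. The counts below say nothing about these. None of the measured genes passed the adjusted threshold in any comparison (limma). At 1 week 5 of the 121 had an unadjusted p under 0.05, or 4.13% against 4.22% of all genes, and at 4 weeks 1, or 0.826% against 1.91%. Over both times there were 8, or 6.61% against 4.76%. The pathway's shares were thus near the background. The splits of each list into genes above and below 0, given next, moved with single arrays. Over all arrays left out in turn, the number above 0 ran from 8 to 12 for the G proteins at 1 week, from 7 to 13 for receptor regulation at 1 week, from 2 to 8 for the kinase list at 4 weeks and from 4 to 10 for the phosphatases at 4 weeks.

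Among the 19 G protein subunits, the median at 1 week was -0.0011 (9 above 0, 10 below), and the split was the same at 4 weeks (median -0.0070). The smallest unadjusted p at 1 week belonged to Gna11, a subunit that activates phospholipase C. Its log2 signal was 7.87 and 7.84 in saline and 8.16 and 8.18 in MPTP, a difference of 0.31 ± 0.09 without overlap (unadjusted p = 0.0055, adjusted p = 0.9998). At 4 weeks Gna11 stood at 0.01 ± 0.09, and the difference of the effects was -0.30 ± 0.13 (unadjusted p = 0.0361, adjusted p = 0.9999). Gnaq, a subunit of the same class, stood at 0.15 ± 0.07 over both times (unadjusted p = 0.0497, adjusted p = 0.973, limma). Without saline 1 week array 1 this difference was 0.10. All 4 MPTP arrays of Gnaq lay above every saline array of the series, from 8.39 to 8.53 against 8.14 to 8.39. The margin was smaller than the digits printed here. Gnai3, an inhibitory subunit of the kind that D2 class receptors use, stood at -0.16 ± 0.09 at 4 weeks (-0.09 without saline array 1).

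Among the 19 genes that regulate receptors and G proteins, 10 were above and 9 below 0 at 1 week, and 5 above and 14 below at 4 weeks (median -0.03). Rgs11, which speeds the inactivation of G proteins in ON bipolar cells, had a log2 signal of 7.24 to 7.48 on the 4 saline arrays and of 7.15 to 7.21 on the 4 MPTP arrays, without overlap. Its difference over both times was -0.17 ± 0.06 (unadjusted p = 0.0216, adjusted p = 0.973). Grk4, a receptor kinase, stood at 0.37 ± 0.16 at 1 week, with overlap, and at 0.12 without saline array 1, and was dim, with a mean log2 signal of 6.39. The 10 adenylyl cyclases split 3 above and 7 below at 1 week and 4 and 6 at 4 weeks, but 7 and 3 at 1 week without saline array 2. Adcy9 stood at -0.14 ± 0.14 at 1 week, with overlap, and at 0.05 without MPTP array 1, 1 of the arrays that stand apart. Adcy6 stood at -0.21 ± 0.15 at 4 weeks, with overlap, and at -0.10 without MPTP array 1.

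Of the 16 phosphodiesterases that degrade cAMP, 12 were below 0 at 1 week (median -0.06) and 13 at 4 weeks (median -0.03), and 11 were below at both times, or 68.8% of them against 28% of all genes. These counts depended on single arrays. Without the 2 arrays that stand apart 8 were above and 8 below at 1 week (median -0.0032), and without MPTP 4 weeks array 2 the split at 4 weeks was 9 above and 7 below (median 0.02). Pde10a had the smallest unadjusted p of the list at 1 week and over both times, and Pde4d at 4 weeks. The log2 signal of Pde4d was 8.28 and 8.30 in saline and 7.95 and 8.11 in MPTP, a difference of -0.26 ± 0.11 (unadjusted p = 0.0400, adjusted p = 0.9999), against -0.05 ± 0.11 at 1 week.

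Among the 17 genes of protein kinase A and other cAMP effectors, 10 were above 0 at 1 week and 5 at 4 weeks. Prkacb, a catalytic subunit of the kinase, had log2 signals of 9.32 and 9.47 in saline and 9.001 and 9.30 in MPTP at 1 week, and of 9.30 and 9.26 against 9.13 and 9.04 at 4 weeks. The MPTP arrays were lower without overlap at each time, by 0.24 ± 0.11 and by 0.20 ± 0.11 (the 1 week difference was -0.09 without MPTP array 1), and the difference over both times was -0.22 ± 0.08 (unadjusted p = 0.0148, adjusted p = 0.973). Of the 17 phosphatases and DARPP-32 relatives, 10 were above at 1 week and 6 at 4 weeks. Ppp1cb, a catalytic subunit of protein phosphatase 1, the enzyme that DARPP-32 inhibits, stood at 0.19 ± 0.10 at 1 week. Over both times Ppp1cb stood at 0.15 ± 0.06. Ppp1cc, another catalytic subunit, stood at -0.17 ± 0.10 at 4 weeks (-0.09 without MPTP array 2).

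The 8 CREB factors and coactivators had 7 above 0 at 1 week (median 0.05) and 0 at 4 weeks (median -0.08). Without saline array 1 the 1 week split was 3 above and 5 below, without MPTP array 1 it was 4 and 4, and at 4 weeks it was 3 and 5 without MPTP array 1. Crtc2, a coactivator that cAMP signals release to the nucleus, stood at 0.11 ± 0.10 at 1 week, with overlap, and at 0.02 without saline array 1. Crebbp, a coactivator with acetyltransferase activity, stood at -0.13 ± 0.11 at 4 weeks (-0.08 without MPTP array 1). Crtc1 had the smallest unadjusted p over both times, at -0.07 ± 0.06 (-0.02 without saline 4 weeks array 2). Of 6 other receptors that act through cAMP, 4 were above 0 at 1 week and 4 at 4 weeks. Vipr2, a receptor of the peptide VIP, stood at -0.20 ± 0.13 at 4 weeks (-0.12 without MPTP array 1) and -0.19 ± 0.09 over both times (-0.11 without MPTP 1 week array 2), and Gpr37 at 0.13 ± 0.09 at 1 week.

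Of the 4 connexins of retinal gap junctions, 2 were above 0 at 1 week and 3 at 4 weeks. Gjd2 encodes the main connexin of retinal neurons, whose coupling dopamine controls in AII amacrine cells and photoreceptors. Its log2 signal was 9.27 and 9.45 in saline and 9.09 and 9.27 in MPTP at 1 week, and 9.33 on both saline arrays and 9.19 and 9.18 in MPTP at 4 weeks. The groups did not overlap at 4 weeks. The difference of Gjd2 was -0.18 ± 0.10 at 1 week (-0.09 without MPTP array 1), -0.15 ± 0.10 at 4 weeks and -0.16 ± 0.07 over both times (unadjusted p = 0.0309, adjusted p = 0.973).

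**Figure D4:**
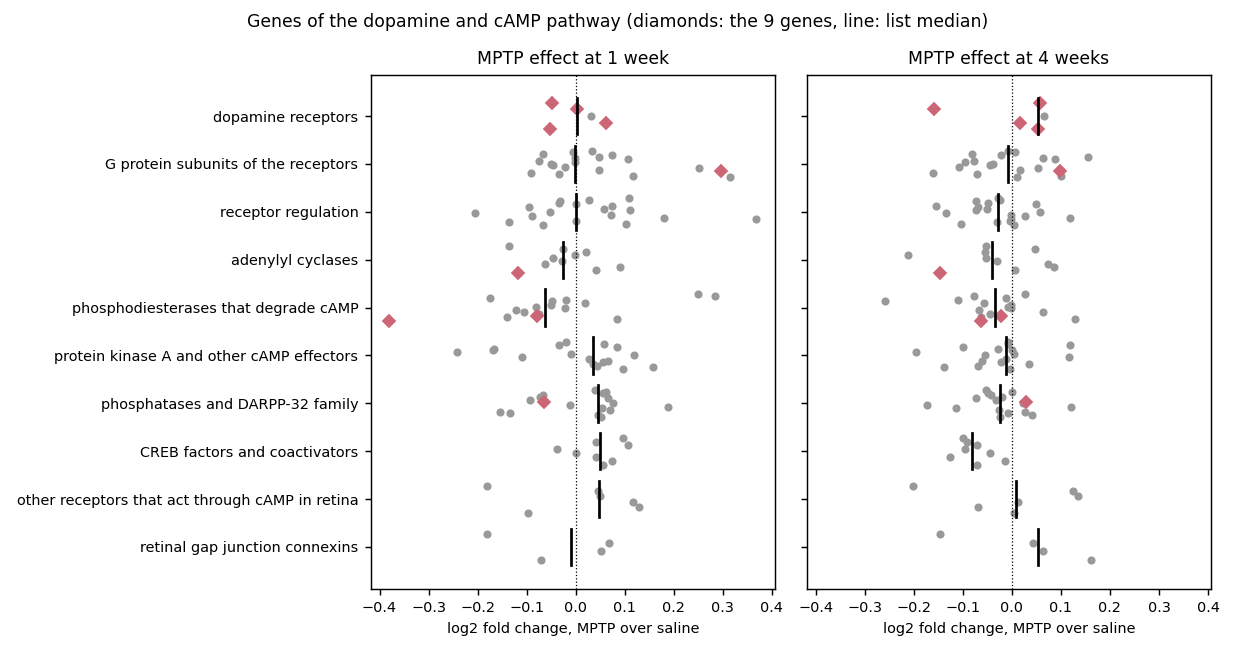
MPTP over saline differences (x axis, log2 fold change) of the 121 genes of the 10 pathway lists (rows) at 1 and 4 weeks, with diamonds for the 9 genes, grey points for the others and a black line for each list's median. Pde10a is the lowest point of the 1 week panel, and most phosphodiesterases lie left of 0 in both panels.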

How the data were processed

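Total RNA of pooled retinas was hybridised to Affymetrix arrays, 2 per group. The authors deposited log2 signals per probe set, which were used as they are. The submitters' processing notes name RMA and Affymetrix Expression Console, without versions. RMA puts all arrays on 1 distribution of probe signals, so a shift of all genes together would not show. The gene values made from these still differed in width between arrays. Their interquartile range was 1.90 in saline 1 week array 2 and 1.92 in MPTP 1 week array 1, against 1.65 to 1.74 on the others. Of 28944 probe sets, 21789 name 1 gene by the platform annotation, 1621 name several and 5534 have no entry. A gene was represented by its probe set with the highest mean, which gives 19938 genes, and levels of different probe sets were not compared.

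Differences were fitted with limma 3.58.1 (R 4.3.3), with a mean per group (4 residual degrees of freedom) and, for both times together, treatment plus time (5). Benjamini-Hochberg adjustment ran over all genes, with a threshold of 0.05. Microarray values have no read depth, and 2 arrays a group limit the precision. The fit was tested on simulated data with independent noise for each gene and array. These held no effect shared by the genes of an array, so the test does not cover the 2 arrays that stand apart. Groups do not overlap where every array of one is above every array of the other. The 9 genes are all reported, and from each pathway list the gene with the smallest unadjusted p at 1 week, at 4 weeks and over both times is named. The members and lists were chosen with earlier results of these data known. Promoters are RefSeq's, on GRCm38.p6. Alternatives covered normalization, filter, probe set rule, spread model, the arrays in the fit, and a block on array number. Leaving out each array in turn for the pathway genes beside the 9 was added after seeing the data. Deviations of same-numbered arrays from their group means correlated at -0.38 to 0.21 across pairs of groups. The value of -0.38 was that of saline 1 week and MPTP 1 week. With 2 arrays a group the deviations mirror each other. There, array 2 of saline thus went with array 1 of MPTP, the arrays that stand apart. Whether arrays were paired or shared a batch cannot be settled by these correlations.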

Additional observations from a re-analysis of the deposited data

How the results depend on the processing

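With every alternative tried, 0 of the 54 member results (9 genes in 6 comparisons) passed the adjusted threshold, the smallest adjusted p being 0.268 (Gnal, change with time in MPTP, limma). Over all genes the number called was 0 in every comparison and setting except the change with time in MPTP, where 1 gene (Rny1, lower, named after its value was seen) was called without MPTP 1 week replicate 1 and again without the 2 arrays that stand apart. Numbers of genes with an unadjusted p under 0.05 depended more on the setting. In settings that test all genes and keep 2 arrays in each group compared, they ran from 477 to 1022 at 1 week, against 842. At 4 weeks such settings gave 304 to 942, against 381. The filter at percentile 50, which leaves only 9969 genes to test, gave 572 and 195. The array number as a replicate block called 0 genes in every comparison, with 713 genes at an unadjusted p under 0.05 at 1 week and 304 at 4 weeks, and crossing the numbers of MPTP 1 week, an alternative chosen after seeing the data, also called 0, with 947 and 453. With the block the unadjusted p was 0.0151 for Pde10a at 1 week and 0.0466 over both times, but 0.0568 for Gnal at 1 week and 0.0672 for Drd4 from 1 to 4 weeks in MPTP, both then above 0.05. Drd5 was removed by the filter at percentile 50. The fit on only the groups compared was not run for the difference of effects and for both times, which need all groups.

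Of the 54 member results 24 kept their sign in every alternative, the MPTP differences of Pde10a and Gnal at 1 week among them. The 24 also hold the 1 week difference of Drd2, which was only 1.0e-05 without the 2 arrays that stand apart, against 0.06. The results outside these 24 changed sign in at least 1 alternative, and the cause was not tested. At 1 week the values were Drd4 -0.020 after quantile normalization, Drd4 -0.019 after cyclic loess, Drd4 -0.021 and Adcy1 0.028 without the 2 arrays that stand apart. At 4 weeks the values were Pde1b 0.0014 after cyclic loess. Over both times the values were Drd1 -0.0031 after median centring, Ppp1r1b 0.011 without the 2 arrays that stand apart. For the difference of effects the values were Drd2 0.0088 and Adcy1 0.025 after quantile normalization, Drd2 0.0061 and Adcy1 0.021 after cyclic loess, Drd2 0.017 and Pde1b -0.012 without the 2 arrays that stand apart. For the change with time in saline the values were Drd4 0.019 after quantile normalization, Drd4 0.012 after cyclic loess, Drd2 -0.015 after median centring, Drd2 -0.034, Pde1b 0.047, Gnal 0.052 and Ppp1r1b -0.045 without the 2 arrays that stand apart. For the change with time in MPTP the values were Drd1 0.091 and Drd2 0.065 after quantile normalization, Drd1 0.088 and Drd2 0.056 after cyclic loess, Adcy1 -0.035 and Pde1b -0.028 after median centring.

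Leaving out each array in turn gave these ranges where a sign changed. At 1 week Drd4 ran from -0.043 to 0.048, Ppp1r1b from -0.17 to 0.038, Adcy1 from -0.29 to 0.054 and Pde1b from -0.17 to 0.013. At 4 weeks Drd5 ran from -0.027 to 0.14, Gnal from -0.022 to 0.22, Drd1 from -0.0075 to 0.12, Drd2 from -0.028 to 0.063, Ppp1r1b from -0.010 to 0.069 and Pde10a from -0.23 to 0.11. Over both times Ppp1r1b ran from -0.050 to 0.033, Drd1 from -0.035 to 0.021 and Drd5 from -0.040 to 0.028. For the difference of effects Adcy1 ran from -0.20 to 0.14, Pde1b from -0.036 to 0.15, Ppp1r1b from -0.0087 to 0.20 and Drd2 from -0.090 to 9.7e-04. For the change with time in saline Adcy1 ran from -0.14 to 0.21, Drd2 from -0.034 to 0.036, Pde1b from -0.14 to 0.047, Gnal from -0.14 to 0.099, Ppp1r1b from -0.045 to 0.086, Drd4 from -0.084 to 0.0072 and Drd5 from -0.12 to 0.053. For the change with time in MPTP Drd1 ran from -0.068 to 0.055, Adcy1 from -0.022 to 0.030, Pde1b from -0.014 to 0.035, Pde10a from -0.021 to 0.32 and Drd2 from -0.089 to 0.0020.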
